A study of Mus musculus with 18 samples.

Results

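The 10 genes described here encode the enzymes, and 1 accessory protein, that turn arachidonic acid into prostaglandins, thromboxane and leukotrienes in bone marrow-derived macrophages (BMDMs). They were chosen by name, as the rows for Pla2g4a, Ptgs1, Ptgs2, Ptges, Hpgds, Tbxas1, Alox5, Alox5ap, Lta4h and Ltc4s, 10 of 25926 genes in an expression table of 18 samples. All 10 were present and all 10 passed the filter on low values (a mean of at least 1 FPKM) in each comparison. FPKM counts fragments per kilobase of gene length and per unit of mapped fragments, so levels of different genes can be set side by side.

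The BMDMs came from C57BL/6J mice and had been grown with 50 ng/mL of the growth factor M-CSF for 7 days. They then sat above primary renal tubular epithelial cells (TECs), separated from them by a membrane with 0.4 μm pores. In the NC group (n = 6) no crystals were added to the TECs, and buffer (PBS) was given to the BMDMs. In the COM group (n = 6) the TECs were exposed to calcium oxalate monohydrate, the main mineral of kidney stones, at 100 μg/mL for 24 h, while PBS was again given to the BMDMs. In the COM+Met group (n = 6) the TECs received the same crystals and the BMDMs were given Met at 5.0 mM for 24 h, an agent that the labels do not spell out. The labels do not say whether the 6 samples of a group were separate mice or cultures, so the p-values speak only of sample-to-sample spread, part or all of which may be technical.

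Arachidonic acid is held in membrane phospholipids and is freed by cytosolic phospholipase A2. Cyclooxygenases convert it to prostaglandin H2, from which terminal synthases make prostaglandin E2, prostaglandin D2 or thromboxane A2. In the other branch, 5-lipoxygenase, with the help of its activating protein, makes leukotriene A4, which becomes either the neutrophil attractant leukotriene B4 or the cysteinyl leukotriene C4. Macrophages hold both branches, and inflammatory stimulation is classically tied to induction of the inducible cyclooxygenase and of microsomal prostaglandin E synthase.

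Between NC and COM, the transcript for the inducible prostaglandin E synthase rose and those for the constitutive cyclooxygenase, the prostaglandin D synthase and 5-lipoxygenase fell. Of the 4 genes of the 5-lipoxygenase branch, Alox5 and Ltc4s were called lower, Ltc4s only with certain libraries kept, while Alox5ap and Lta4h differed by less than 2-fold. Mean Ptges went from 8.77 ± 3.46 to 71.6 ± 15.9 FPKM (SD, n = 6 in each group), and mean Alox5 from 74.0 ± 8.86 to 8.10 ± 7.37 FPKM. In COM+Met the same directions were seen against NC, with Ptges at 102 ± 5.72 and Alox5 at 1.66 ± 0.273 FPKM. The inducible cyclooxygenase gene Ptgs2 varied widely in NC, from 0.311 to 28.8 FPKM, and its difference between COM and NC did not pass the test. That difference was much smaller without NC-5 and NC-6, the lowest NC libraries for this gene, and COM-1 to COM-3 lay within the NC range.

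The regions around the gene starts are shown for the 4 genes that these contrasts turn on, 2 that were lower and 2 whose means were higher in COM. Each run is 300 bases from the RefSeq annotation of GRCm38.p6, 250 before and 50 from the start onward, printed 5′ to 3′ on the strand of the gene. Alox5 lies at chr6:116461129-116461428 on the minus strand and Ptgs1 at chr2:36230176-36230475 on the plus strand. Ptges lies at chr2:30903248-30903547 on the minus strand and Ptgs2 at chr1:150099781-150100080 on the plus strand. The Ptges run lies far inside the gene span given further on, which comes from another annotation and reaches to 30929863. Capitals mark every match, on either strand, to the 7 letter patterns named after the sequences.
Alox5: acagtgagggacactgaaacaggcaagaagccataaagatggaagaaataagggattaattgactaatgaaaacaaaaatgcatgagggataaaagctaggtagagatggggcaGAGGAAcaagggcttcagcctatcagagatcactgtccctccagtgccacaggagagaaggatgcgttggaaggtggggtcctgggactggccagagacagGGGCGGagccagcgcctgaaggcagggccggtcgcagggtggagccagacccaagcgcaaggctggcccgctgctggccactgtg
Ptgs1: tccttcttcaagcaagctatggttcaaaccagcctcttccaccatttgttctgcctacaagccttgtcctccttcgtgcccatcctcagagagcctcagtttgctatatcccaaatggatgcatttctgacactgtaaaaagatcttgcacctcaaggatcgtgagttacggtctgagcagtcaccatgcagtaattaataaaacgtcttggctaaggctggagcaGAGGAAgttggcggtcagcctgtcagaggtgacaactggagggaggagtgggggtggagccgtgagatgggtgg
Ptges: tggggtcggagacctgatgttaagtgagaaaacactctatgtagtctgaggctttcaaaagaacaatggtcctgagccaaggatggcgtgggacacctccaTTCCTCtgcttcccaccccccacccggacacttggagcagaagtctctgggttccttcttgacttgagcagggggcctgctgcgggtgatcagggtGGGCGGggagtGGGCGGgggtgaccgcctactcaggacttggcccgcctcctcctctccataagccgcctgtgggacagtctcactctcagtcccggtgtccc
Ptgs2: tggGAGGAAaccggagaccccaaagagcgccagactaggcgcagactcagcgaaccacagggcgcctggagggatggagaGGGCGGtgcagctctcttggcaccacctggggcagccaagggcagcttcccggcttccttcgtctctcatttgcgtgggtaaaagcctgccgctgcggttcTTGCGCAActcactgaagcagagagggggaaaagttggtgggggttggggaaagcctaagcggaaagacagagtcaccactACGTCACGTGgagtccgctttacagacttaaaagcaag

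The patterns were TATAAA for a TATA box, GGGCGG for Sp1, GAGGAA for the core bound by the myeloid factor PU.1, TGANTCA for AP-1, TTGCNNAA for C/EBP, TGACGT for the cAMP response element and CACGTG for an E-box. Of the 10 genes, 9 had such a sequence, and none was given for Alox5ap. Where several starts were listed, the first was counted. The PU.1 core was present in 8 of these 9 (Pla2g4a being the other one), against 28.3% of 32851 mouse promoters of the same length. The Ptgs2 run held 5 of the patterns, with the C/EBP match at -69 and, just after the gene start, a cAMP response element and an E-box that share their last and first letters. The C/EBP pattern was found in 10.8%, the cAMP response element in 7.51% and the E-box in 7.15% of all promoters. Alox5 carried a PU.1 core and 1 GGGCGG, Ptges a PU.1 core (as its reverse complement) and 2 copies of GGGCGG, and Ptgs1 a PU.1 core at -24 and no other listed pattern, with GGGCGG found in 35.7% of all promoters. TATAAA (13.6% of all promoters) was found in Tbxas1 and TGANTCA (7.81%) in Tbxas1. A match is a run of letters and says nothing of binding. No site of binding was measured.

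Several libraries stood apart, which bears on the results that follow. Over all genes, samples of a group correlated at 0.938 to 0.995 in NC, 0.989 to 0.995 in COM+Met and only 0.888 to 0.995 in COM. Between the set COM-1 to COM-3 and the set COM-4 to COM-6 the correlation was 0.888 to 0.951. No label sets these libraries apart, and the values of both sets are given for each of the 10 genes. NC-5 and NC-6 lay below all of NC-1 to NC-4 in Ptgs2, Ptgs1, Alox5 and Ptges, and above all of them in Ltc4s, Lta4h and Alox5ap. The gap was narrow for Ptges and Alox5ap. The sum of all FPKM values ranged from 380731 to 449186 per sample, and the read depth cannot be learned from these values. The median log2 difference of all genes was -0.27 in COM vs NC, 0.0033 in COM+Met vs COM and -0.26 in COM+Met vs NC, so each contrast with NC is also given relative to that median where it matters. All 10 macrophage markers examined reached a mean of 1 FPKM or more in NC, and their summed level, nearly all of it Lyz2, was 11100 to 15600 FPKM in NC, 10600 to 14300 in COM and 12300 to 17100 in COM+Met. Other macrophage markers differed several-fold between NC and COM, with medians of 117 and 557 FPKM for Adgre1, 8.16 and 61.7 for Fcgr1 and 73.4 and 431 for Cd14, and their part in the results was not tested.

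In NC the accessory protein gene Alox5ap was by far the most abundant of the 10, at 350 ± 27.6 FPKM. Alox5 (74.0), Ltc4s (65.0), Ptgs1 (57.0), Tbxas1 (46.3) and Lta4h (44.9) followed as means in FPKM, and neighbours in this order had overlapping samples. The lowest Lta4h sample (38.2 FPKM) was above every NC sample of the other 4 genes, the highest of which was Ptgs2 in NC-2 (28.8 FPKM). Hpgds (14.2), Pla2g4a (12.7), Ptgs2 (11.3) and Ptges (8.77) made up the lower part, again with neighbours that overlapped. By its mean, Ptges went from rank 10 in NC to rank 2, behind Alox5ap, in both COM and COM+Met. Alox5 went from rank 2 in NC to rank 9 in COM and rank 10 in COM+Met.

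**Figure D1:**
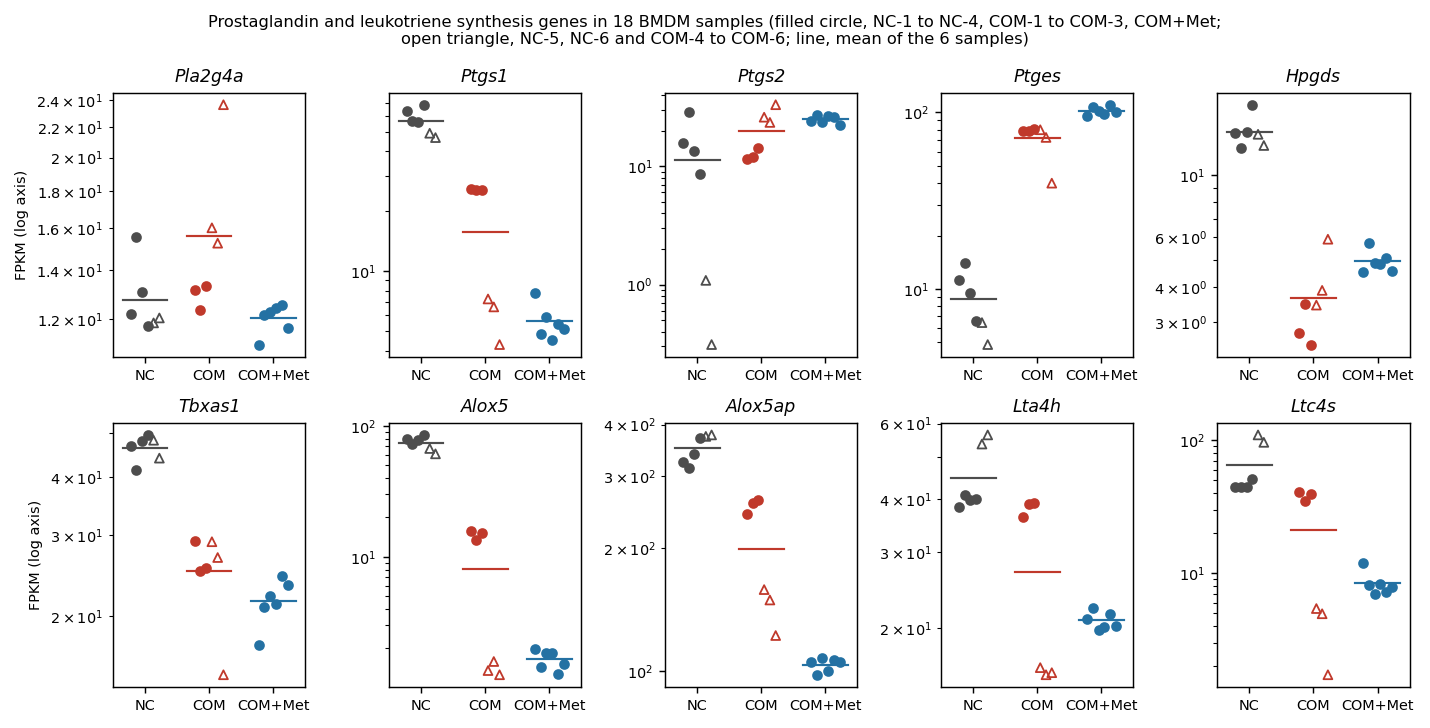
FPKM (log axis) of the 10 genes in the 18 samples, in 10 panels with the groups NC, COM and COM+Met on the horizontal axis. Points are samples, horizontal lines are means of 6, and open triangles mark NC-5, NC-6 and COM-4 to COM-6. Ptges in all COM samples lies above all NC samples, and Alox5 splits in COM into 3 samples at 13.6 to 15.8 FPKM and 3 at 1.26 to 1.59 FPKM.

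COM was first compared with NC to ask how BMDMs differ when the neighbouring TECs have met crystals. A gene was called when its adjusted p was below 0.05 (limma, Benjamini-Hochberg over all 10900 genes tested) and it differed by at least 2-fold on the log2(FPKM + 1) scale. Of the 10 genes, 1 was called higher (5.99% of all genes tested were) and 4 were called lower (11.7% of all genes tested). By the adjusted p alone, 1 was higher (12.7% of all genes) and 7 were lower (40.6% of all genes). The 6 COM samples did not overlap the 6 NC samples for 7 of the 10 genes, against 38.2% of all genes tested. The median difference of the 10 genes was -0.88, and that of all genes -0.27, on the log2 scale. Of all 1926 called genes 33.9% were higher, a share that became 51.3% with median-of-ratios size factors and 47.3% with quantile normalisation. The directions of these 10 genes did not turn under either scaling in this comparison.

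Pla2g4a (chr1:149829618-149961290, minus strand, GRCm38), cytosolic phospholipase A2, which frees the substrate of both branches, overlapped between the groups. It ranged from 11.7 to 15.6 FPKM (median 12.1) in NC, from 12.4 to 23.6 (median 14.3) in COM and from 11.1 to 12.5 (median 12.2) in COM+Met. COM and NC overlapped, with the highest COM value in COM-6. The log2 difference between COM and NC was 0.25 (95% interval -0.059 to 0.56, adjusted p = 0.157). It passed the test with size factors (0.55, adjusted p = 0.0383), with quantile normalisation (0.47, adjusted p = 0.0484) and with COM-4 to COM-6 alone (0.47, adjusted p = 0.0201), each under 2-fold. COM-1 to COM-3 were at 12.4 to 13.3 FPKM and COM-4 to COM-6 at 15.2 to 23.6 FPKM.

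Ptgs1 (chr2:36230426-36252272, plus strand), the constitutive cyclooxygenase COX-1, fell in COM. Its lowest, median and highest values were 46.9, 56.6 and 68.6 FPKM in NC, and 4.28, 16.4 and 25.8 FPKM in COM. Every COM sample lay below every NC sample, but within COM the samples formed 2 sets, COM-1 to COM-3 at 25.5 to 25.8 FPKM and COM-4 to COM-6 at 4.28 to 7.26 FPKM. The means differed 3.60-fold, and the log2 difference was -2.08 ± 0.40 (SE, adjusted p = 0.000942, and p = 0.00216 in a two-sided exact permutation test, the smallest that 6 against 6 can give). It stood at rank 237 by size among the 1273 genes called lower. With COM-1 to COM-3 alone the log2 difference was -1.11 and with COM-4 to COM-6 alone -3.05.

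Ptgs2 (chr1:150100031-150108227, plus strand), the inducible cyclooxygenase COX-2, is an early response gene of inflammatory stimulation. In NC its values were 15.8, 28.8, 13.4, 8.64, 1.09 and 0.311 FPKM, in the order NC-1 to NC-6. The 2 libraries NC-5 and NC-6 were the lowest of all 18 samples, whereas NC-2 was above all COM+Met samples. In COM the lowest, median and highest values were 11.5, 18.8 and 33.1 FPKM, with COM-1 to COM-3 at 11.5 to 14.1 and COM-4 to COM-6 at 23.4 to 33.1. COM-1 to COM-3 thus lay within the range of NC. The log2 difference was 1.36 ± 0.68 (95% interval -0.11 to 2.84, adjusted p = 0.109, exact permutation p = 0.121), a difference not resolved from the spread between samples. Without NC-5 and NC-6 it was 0.27 (adjusted p = 0.568). It passed the test without NC-2 (1.76, adjusted p = 0.0384) and in a fit of all 18 samples (1.36, adjusted p = 0.0489), and it turned to -0.033 (adjusted p = 0.946) when limma weighted each sample by its quality.

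Within a sample the ratio of Ptgs2 to Ptgs1 is free of any scaling of that sample. It was at most 0.504 in every NC sample (lowest 0.00664, median 0.182) and 0.445 to 0.554 in COM-1 to COM-3. In COM-4 to COM-6 it was 3.54 to 7.72. Ptgs1 transcripts therefore outnumbered Ptgs2 per unit length in all NC samples and in COM-1 to COM-3, and the order was the opposite in COM-4 to COM-6.

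Ptges (chr2:30889471-30929863, minus strand), the inducible microsomal prostaglandin E synthase, was the only one of the 10 genes called higher in COM. Its lowest, median and highest values were 4.84, 8.05 and 14.0 FPKM in NC and 39.7, 78.5 and 80.9 FPKM in COM. The groups did not overlap, and both sets of COM samples were high, at 78.0 to 80.9 in COM-1 to COM-3 and 39.7 to 79.8 in COM-4 to COM-6. The means differed 8.16-fold, and the log2 difference was 2.93 ± 0.24 (SE, adjusted p = 1.13e-06), or 3.20 relative to the median of all genes. It stood at rank 121 by size among the 653 genes called higher.

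The other terminal prostanoid synthases went the opposite way. Hpgds (chr6:65117293-65144908, minus strand), the haematopoietic prostaglandin D synthase, ranged from 12.5 to 17.8 FPKM (median 14.0) in NC and from 2.5 to 5.91 (median 3.47) in COM. The groups did not overlap, with COM-1 to COM-3 at 2.5 to 3.49 and COM-4 to COM-6 at 3.45 to 5.91 FPKM. The means differed 3.88-fold, with a log2 difference of -1.73 ± 0.15 (SE, adjusted p = 1.91e-06). Tbxas1 (chr6:38875404-39084585, plus strand), thromboxane A synthase, ranged from 41.4 to 49.4 FPKM (median 47.3) in NC and from 14.9 to 29.1 (median 26.1) in COM. It fell without overlap but by less than 2-fold (log2 difference -0.89 ± 0.14, adjusted p = 0.000281), with COM-1 to COM-3 at 25.0 to 29.1 and COM-4 to COM-6 at 14.9 to 29.0 FPKM. An exon of Tbxas1 overlaps Hipk2 on the other strand, which had a mean of 8.28 FPKM. Because the library kit does not mark strand, reads of the overlap cannot be assigned. The same limit holds for Ptgs1, Alox5ap and Ltc4s, whose exons overlap Gm43621, Gm19719 and Gm26542 on the other strand, genes that have no values here. The ratio of Ptges to Hpgds within a sample was 0.369 to 1.12 in NC and 6.72 to 32.4 in COM, and that of Ptges to Tbxas1 was 0.11 to 0.339 in NC and 2.67 to 3.18 in COM.

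Alox5 (chr6:116410077-116461178, minus strand), 5-lipoxygenase, the enzyme that opens the leukotriene branch, fell the most of the 10 genes. Its lowest, median and highest values were 61.1, 75.3 and 85.3 FPKM in NC. In COM-1 to COM-6 they were 15.8, 13.6, 15.1, 1.35, 1.59 and 1.26 FPKM. All COM samples were below all NC samples, and COM-4 to COM-6 were in turn far below COM-1 to COM-3. The means differed 9.14-fold, with a log2 difference of -3.60 ± 0.54 (SE, adjusted p = 0.000157), rank 26 by size among the genes called lower. It was -2.24 with COM-1 to COM-3 alone and -4.96 with COM-4 to COM-6 alone.

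Alox5ap (chr5:149264767-149288153, plus strand), the 5-lipoxygenase activating protein FLAP that presents arachidonic acid to the enzyme, fell less. Its lowest, median and highest values were 314, 355 and 378 FPKM in NC and 122, 200.04 and 262 FPKM in COM. The groups did not overlap, with COM-1 to COM-3 at 242 to 262 and COM-4 to COM-6 at 122 to 158. The log2 difference was -0.87 ± 0.19 (adjusted p = 0.00215), below 2-fold. Alox5 relative to Alox5ap within a sample was 0.162 to 0.245 in NC, 0.0526 to 0.0652 in COM-1 to COM-3 and 0.00854 to 0.0106 in COM-4 to COM-6.

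Lta4h (chr10:93453411-93484875, plus strand), the hydrolase that makes leukotriene B4, depended on which libraries were kept. It ranged from 38.2 to 56.4 FPKM (median 40.4) in NC, where NC-5 and NC-6 were the highest, and from 15.5 to 39.1 (median 26.2) in COM. COM-1 to COM-3 (36.2 to 39.1) overlapped NC, and COM-4 to COM-6 (15.5 to 16.1) did not. The log2 difference of -0.82 ± 0.26 (adjusted p = 0.019) did not pass the test with COM-1 to COM-3 alone (-0.22, adjusted p = 0.197), without NC-5 and NC-6 (-0.67, adjusted p = 0.0962), with size factors (-0.52, adjusted p = 0.0576) or with samples weighted by quality (-0.14, adjusted p = 0.31).

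Ltc4s (chr11:50236461-50238616, minus strand), which joins leukotriene A4 to glutathione to make leukotriene C4, was called lower on the same footing. It ranged from 44.4 to 50.8 FPKM in NC-1 to NC-4 and stood at 109 and 96.2 in NC-5 and NC-6. In COM it ranged from 35.1 to 40.8 FPKM in COM-1 to COM-3 and from 1.73 to 5.43 in COM-4 to COM-6. The groups did not overlap, although the gap to COM-1 to COM-3 was small. The log2 difference of -2.17 ± 0.66 (adjusted p = 0.0148) did not pass with COM-1 to COM-3 alone (-0.64, adjusted p = 0.111), without NC-5 and NC-6 (-1.79, adjusted p = 0.0797) or with samples weighted by quality (-0.46, adjusted p = 0.131).

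**Figure D2:**
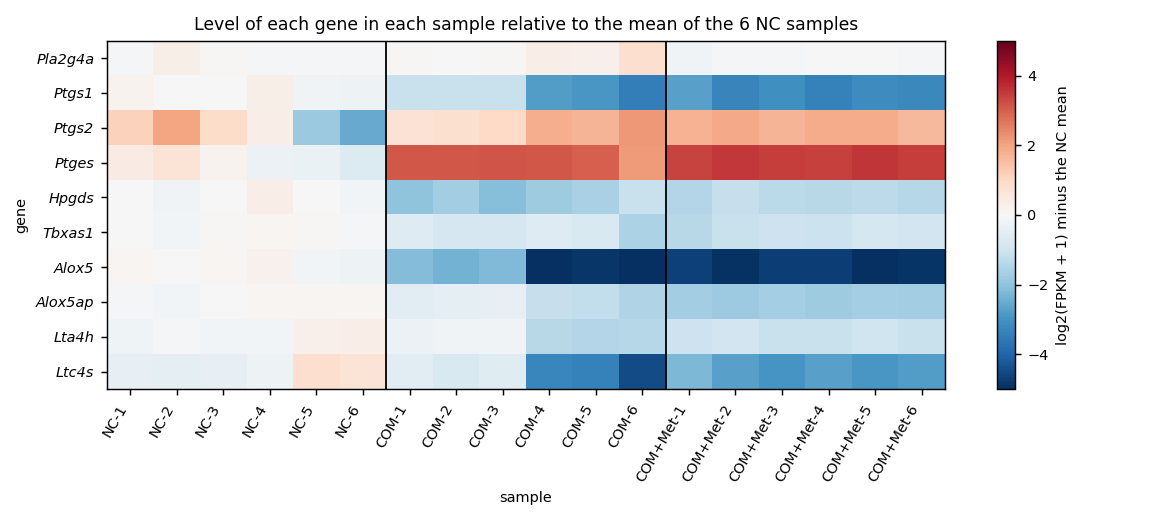
Level of each of the 10 genes (rows) in each of the 18 samples (columns), as log2(FPKM + 1) minus the mean of the 6 NC samples. Red is higher and blue lower than NC, and black lines part the groups. Ptges is red in all 12 samples above crystal-exposed TECs, and Ptgs1, Alox5 and Ltc4s are darker blue in COM-4 to COM-6 than in COM-1 to COM-3.

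COM+Met was next compared with COM, the contrast that asks what Met given to the BMDMs changed while the TECs carried crystals. None of the 10 genes was called by limma (0 higher, against 0.608% of 10364 genes tested, and 0 lower, against 1.61%). By the adjusted p alone, Ptges was higher (5.77% of all genes were) and Alox5ap lower (7.58% of all genes). These were also the 2 genes whose groups did not overlap, against 11.2% of all genes. At an unadjusted p below 0.05, limma gave 6 of the 10 genes (28.6% of all genes), and the exact permutation test gave 4 (30.4% of all genes).

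Ptges had a lowest, median and highest value of 95, 101 and 111 FPKM in COM+Met, all above the COM maximum of 80.9. The log2 difference was 0.54 ± 0.16 (SE, adjusted p = 0.0381, exact permutation p = 0.00216), a 1.42-fold difference of means. It was close to the threshold. The adjusted p rose to between 0.0586 and 0.0837 when any 1 of the COM+Met samples was left out, and to 0.0524 without COM-2. Of 24 alternative fits, 10 did not pass the adjusted p. Alox5ap was at 98.1, 105 and 108 FPKM (lowest, median and highest), below the COM minimum of 122. Its log2 difference was -0.87 ± 0.18 (adjusted p = 0.00839), and it kept its sign and passed both with COM-1 to COM-3 alone (-1.28) and with COM-4 to COM-6 alone (-0.45).

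Of the other 8 genes, 7 lay inside the COM range in every COM+Met sample, and Pla2g4a lay partly below it. Alox5 was at 1.28 to 1.97 FPKM (median 1.69) in COM+Met, which is around the level of COM-4 to COM-6 (1.26 to 1.59) and below that of COM-1 to COM-3 (13.6 to 15.8). Ptgs1 was at 4.51 to 7.75 FPKM (median 5.29), again around COM-4 to COM-6 and below COM-1 to COM-3. Their log2 differences over all COM samples were -1.22 (95% interval -2.40 to -0.038, adjusted p = 0.161) for Alox5 and -1.06 (interval -1.93 to -0.18, adjusted p = 0.103) for Ptgs1.

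Against COM-1 to COM-3 alone, 4 of the 10 genes were called, all lower (5.16% of all genes were called lower and 2.28% higher), with log2 differences of -2.58 for Alox5, -2.03 for Ptgs1, -2.08 for Ltc4s and -1.28 for Alox5ap. Ptgs2 was then higher by 0.94 (adjusted p = 1.02e-06). Against COM-4 to COM-6 alone, an alternative added after the values had been seen, 0 were called by limma (0.94% of all genes were called higher and 1.28% lower), and 5 had an unadjusted p below 0.05 (40.2% of all genes). The signs of Alox5 (0.14), Ltc4s (0.98), Lta4h (0.38) and Ptgs2 (-0.12) turned there. Ltc4s then passed the test in the higher direction (adjusted p = 0.026), as did Lta4h (adjusted p = 0.00473). In FPKM, Ltc4s was at 6.97 to 12 in COM+Met and Lta4h at 19.8 to 22.2, between the 2 sets of COM samples in both cases. Ptgs2 was at 22.3 to 27.3 FPKM (median 25.1). For these genes the direction of the contrast rests on which COM libraries it is set against, and nothing in the labels chooses between them.

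Among the remaining genes, Hpgds was at 4.51 to 5.74 FPKM (median 4.84) in COM+Met, within the COM range of 2.5 to 5.91 (log2 difference 0.38, adjusted p = 0.0962). Without COM-6 it passed the test (0.50, adjusted p = 0.00279), and Tbxas1 did likewise in the lower direction (-0.32, adjusted p = 0.0154). With COM-6 kept, Tbxas1 was at 17.3 to 24.4 FPKM (median 21.7) against 14.9 to 29.1 in COM (adjusted p = 0.446). Pla2g4a differed by -0.32 (adjusted p = 0.124, exact permutation p = 0.00649), with 4 of the 6 COM+Met samples below all COM samples.

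**Figure D3:**
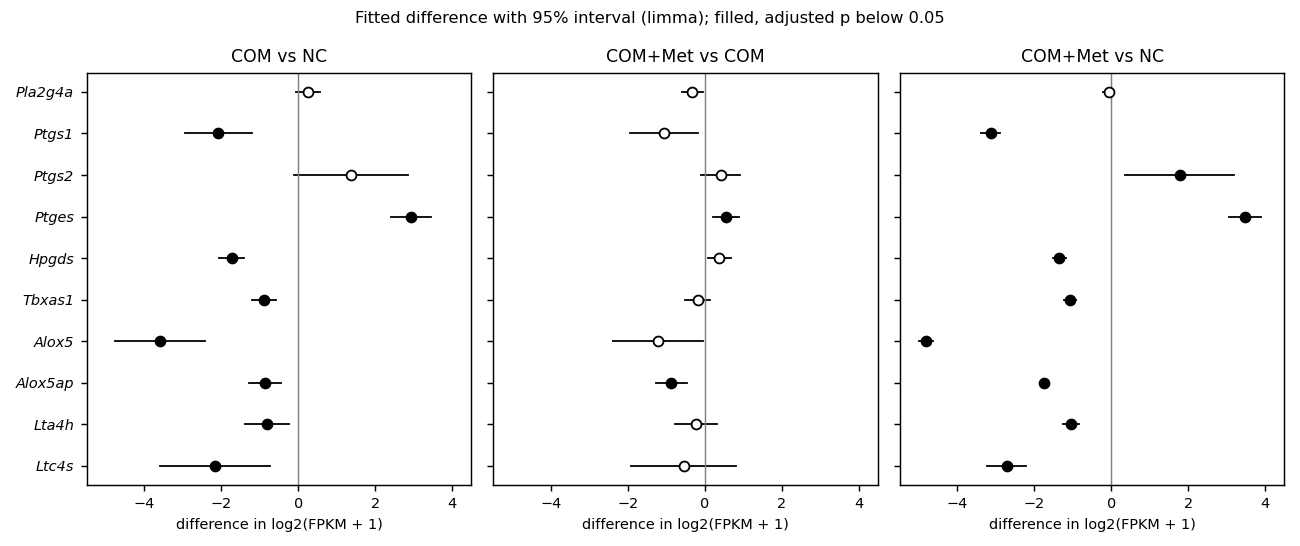
Difference in log2(FPKM + 1) of the 10 genes (rows) in COM vs NC, COM+Met vs COM and COM+Met vs NC (panels), with 95% intervals from limma. Filled points have an adjusted p below 0.05. The intervals of Alox5, Ptgs1, Ltc4s and Ptgs2 are wide wherever COM or NC enters with a split, and in COM+Met vs NC 9 of the 10 points are filled.

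COM+Met was finally compared with NC, which uses the NC samples of the first contrast and the COM+Met samples of the second, so that the 3 contrasts are not independent of each other. Of the 10 genes, 2 were called higher (5.66% of 10786 genes tested) and 7 lower (13.6% of all genes). By the adjusted p alone the counts were also 2 higher and 7 lower, against 19.3% and 55.9% of all genes. For 8 of the 10 the groups did not overlap, against 57.6% of all genes. Over the whole table, higher genes made up 29.4% of the calls as deposited, 46.0% with size factors and 43.8% with quantile normalisation.

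Alox5 was 44.7-fold lower as a ratio of means, with a log2 difference of -4.82 ± 0.089 (SE, adjusted p = 3.59e-13), rank 9 by size among the 1467 genes called lower. Ptgs1 was 10.2-fold lower (-3.14 ± 0.12, adjusted p = 1.37e-10) and Ltc4s 7.72-fold lower (-2.72 ± 0.24, adjusted p = 3.01e-07). Alox5ap (-1.74), Hpgds (-1.35), Tbxas1 (-1.07) and Lta4h (-1.06) were called lower too, and relative to the median of all genes Tbxas1 (-0.81) and Lta4h (-0.80) were under 2-fold. Ptges was 11.6-fold higher (3.47 ± 0.19, adjusted p = 4.03e-09).

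Ptgs2 was called higher by 1.77 ± 0.66 (adjusted p = 0.0258, exact permutation p = 0.0152), although the groups overlapped through NC-2. Without NC-5 it did not pass (1.40, adjusted p = 0.0549), and without both NC-5 and NC-6 it passed at a smaller difference of 0.68 (adjusted p = 0.0152), under 2-fold. Pla2g4a differed by -0.073 (adjusted p = 0.318), a sign that turned with size factors (0.22) and with quantile normalisation (0.18), where it passed the test. The ratio of Ptgs2 to Ptgs1 was 3.12 to 5.84 within the COM+Met samples, above every NC sample, and that of Ptges to Ptgs1 was 12.3 to 21.9 against 0.0958 to 0.246 in NC.

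Over the 18 samples, the genes whose standardised profile lay closest to that of a member were found by the root mean square distance among 10751 genes, as a description. For Alox5 they were Otulinl (distance 0.097), S100a4 (0.105) and Kazald1 (0.109). Ptgs1 had S100a4 (0.127), Sptan1 (0.136) and Alox5 itself (0.143). Ptges had Il12a (0.142), which encodes a subunit of interleukin 12, Tmem178 (0.167) and Fth1 (0.169), the ferritin heavy chain. Ptgs2 had Zc3h12c (0.201), Tnfsf9 (0.258) and Plekhm3 (0.308), all at a larger distance.

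The wider pathway was described from 81 gene names in 5 lists, of which 79 were in the table and 46 were tested in COM vs NC. Of these 46, 4 were called higher and 9 lower, against 5.99% and 11.7% of all genes tested. The median log2 difference of the lists together was -0.38, against -0.27 for all genes. Among the 16 tested genes of arachidonate supply and storage, 2 were called higher and 5 lower. Acsl1, which activates long-chain fatty acids, rose from 81.8 ± 41.3 to 588 ± 27.7 FPKM (log2 difference 2.98, adjusted p = 2.97e-06). Pla2g7, the secreted platelet-activating factor acetylhydrolase, rose from 363 ± 234 to 1070 ± 187 FPKM (2.01, adjusted p = 0.00811). Daglb, which makes monoacylglycerols, fell from 8.64 ± 2.33 to 1.95 ± 0.369 FPKM (-1.69, adjusted p = 1.87e-06). Mgll, the monoacylglycerol lipase that also yields arachidonic acid, fell from 38.1 ± 5.2 to 5.82 ± 2.37 FPKM (-2.58, adjusted p = 7.07e-07), and Anxa1, the annexin known as an inhibitor of phospholipase A2, fell from 564 ± 121 to 183 ± 29.1 FPKM (-1.60, adjusted p = 8.04e-06).

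Of 7 tested receptor genes in COM vs NC, 1 was called higher and 2 lower. For this and the next lists, 5.99% of all genes tested were called higher and 11.7% lower. Fpr2, the receptor for formyl peptides and lipoxin A4, rose from 166 ± 88.4 to 549 ± 34.9 FPKM (1.94, adjusted p = 0.000556). Ptger3, a receptor for prostaglandin E2, was at 2.84 to 9.68 FPKM in NC and at 0 to 0.231 FPKM in COM (-2.22, adjusted p = 3.95e-06). Of 6 other lipoxygenase and leukotriene genes, 2 were called lower, Mgst3 among them (-2.12, adjusted p = 6.1e-05), and the other 4 did not pass the adjusted p. Of 7 other prostanoid synthases, 1 was called, higher. Of 10 genes of breakdown and transport, 4 were lower by the adjusted p, against 40.6% of all genes, and each by less than 2-fold.

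In COM+Met vs COM, 1 of 46 genes of the wider pathway was called higher and 3 lower, against 0.608% and 1.61% of all genes. Mgll was at 25.1 to 33.3 FPKM (median 28.6) in COM+Met and at 3.11 to 9.80 (median 5.51) in COM (2.17 ± 0.19, adjusted p = 4.29e-05). Both sets of COM samples were low, at 4.06 to 5.94 and 3.11 to 9.80 FPKM, and COM+Met overlapped the NC range of 30.5 to 44.6, although it was lower than NC by the adjusted p (-0.40, 95% interval -0.61 to -0.20, adjusted p = 0.00178). Mgst2, which can also make leukotriene C4, was at 7.32 to 10.5 FPKM in COM+Met, below COM-4 to COM-6 (15.7 to 20.1) and below COM-1 to COM-3 (65.8 to 79.1), and was called lower (-1.91, adjusted p = 0.00775).

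Ltb4r1, the high-affinity receptor for leukotriene B4, was at 0.644 to 1.11 FPKM in COM+Met, at 1.27 to 3.35 in COM-4 to COM-6 and at 14.5 to 15.4 in COM-1 to COM-3 (-1.99, adjusted p = 0.0174). Cyp4f18, a leukotriene B4 hydroxylase, was at 3.44 to 5.14 FPKM in COM+Met against 10.4 to 12.6 in COM-1 to COM-3 and 7.12 to 9.50 in COM-4 to COM-6 (-1.03, adjusted p = 0.000283). In none of these 4 did COM+Met overlap either set of COM samples. The median log2 difference of the 46 genes was -0.053, against 0.0033 for all genes.

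In COM+Met vs NC, 4 of 47 genes of the wider pathway were called higher and 12 lower, against 5.66% and 13.6% of all genes. Those that were higher included Acsl1 (2.96) and Fpr2 (1.61). The lowest were Ltb4r1 (-2.67, adjusted p = 7.95e-07), Mgst2 (-2.48, adjusted p = 7.3e-11), Ptger3 (-2.23) and Ptger4 (-1.91), both receptors for prostaglandin E2, followed by Anxa1 (-1.83) and Mgst3 (-1.69).

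**Figure D4:**
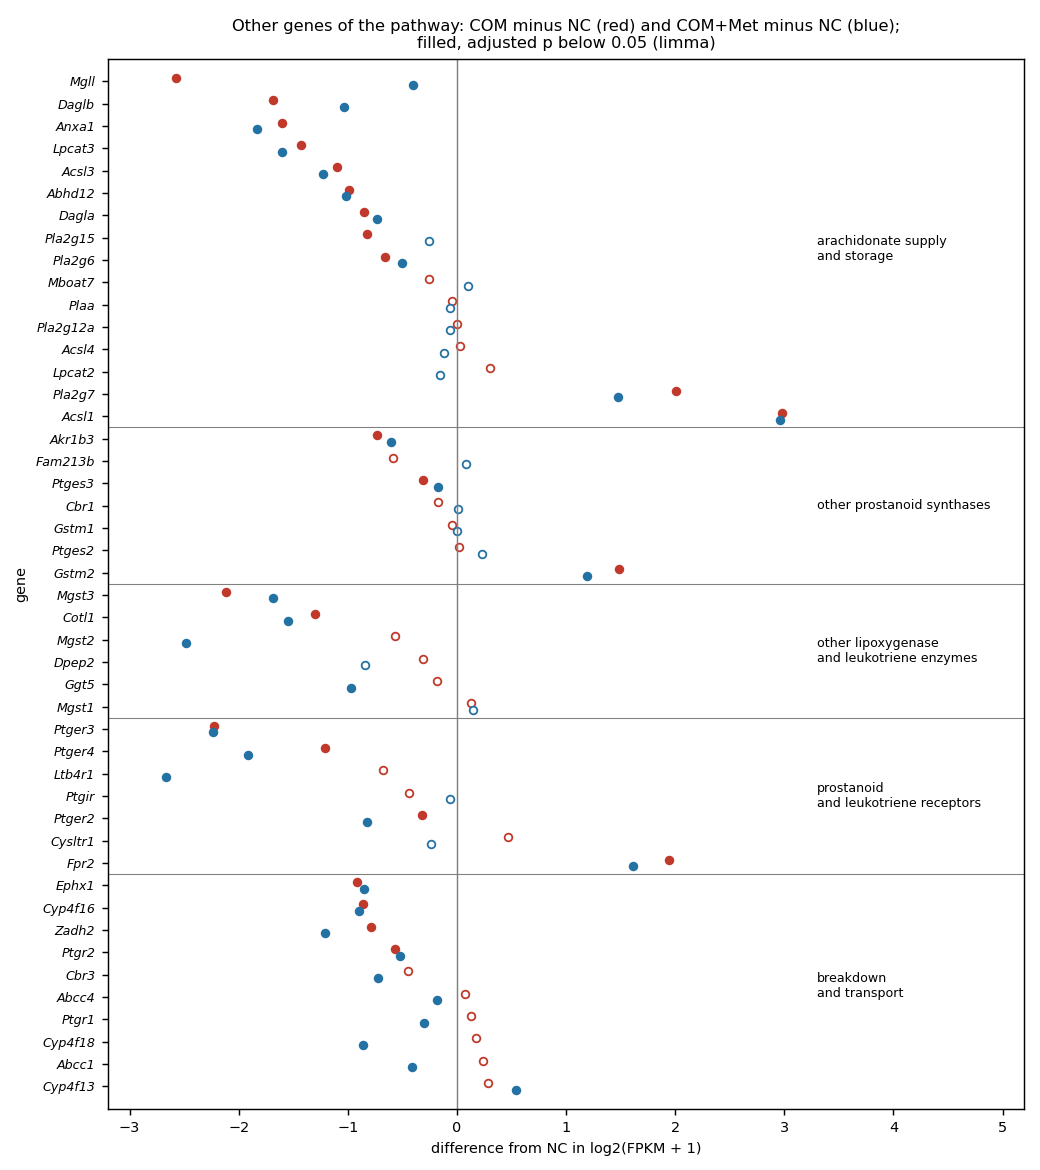
Difference from NC in log2(FPKM + 1) for the tested genes of the wider pathway, grouped by the 5 lists, for COM (red) and COM+Met (blue). Filled points have an adjusted p below 0.05 (limma). Mgll lies at -2.58 for COM and at -0.40 for COM+Met, while Ltb4r1 and Mgst2 lie further down for COM+Met than for COM.

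Because Hpgds, Ltc4s and Alox5 are also expressed by mast cells, basophils, eosinophils and neutrophils, and Ptgs1 and Tbxas1 by platelets, marker lists of those cells were set beside them. The summed level of 10 mast cell and basophil markers was 14.2 to 28.4 FPKM in NC, 2.52 to 5.61 in COM and 1.83 to 2.25 in COM+Met, and 8 of the 10 had a lower mean in COM than in NC, 2 (Mcpt4 and Cma1) being at 0 in all samples. Cpa3, a defining mast cell protease, was at 5.67 to 16.2 FPKM in NC and at 0 to 0.819 in COM. Mcpt8, a defining basophil protease, was at 3.68 to 6.74 in NC and 0 to 0.591 in COM. The sum of 7 eosinophil markers was 60.4 to 130 in NC, 7.23 to 21.3 in COM and 3.57 to 8.70 in COM+Met. Most of the NC sum was Ear6 (40.1 to 108 in NC and 4.61 to 19.6 in COM). Of the 7, 5 had a lower mean in COM than in NC, and Il5ra and Ccr3 were near 0 in all groups. The defining Epx was at most 0.896 in NC and at 0 in all COM and COM+Met samples.

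The sum of 10 neutrophil markers was 535 to 1020 FPKM in NC, 517 to 552 in COM-1 to COM-3, 170 to 231 in COM-4 to COM-6 and 74.0 to 137 in COM+Met. By their means 9 of 10 were lower in COM than in NC, and Camp was not. Most of the COM sum was Mmp8 (105 to 229 in COM) and S100a8 (28.4 to 301 in COM). S100a9 was at 114 to 259 in NC and 1.34 to 17.8 in COM, and Ngp at 13.5 to 48.4 in NC and 0.254 to 3.41 in COM. The sum of 7 platelet and megakaryocyte markers was 3.04 to 13.9 in NC, 5.34 to 8.83 in COM-1 to COM-3, 0.126 to 0.801 in COM-4 to COM-6 and 0.255 to 0.844 in COM+Met. The mast cell and basophil, eosinophil and neutrophil sums were lower in COM than in NC or at its lower edge, as were Hpgds, Alox5, Ltc4s and Ptgs1, and their part in the results was not tested. The mast cell and basophil and neutrophil sums were lower again in COM+Met than in COM, and the eosinophil sums overlapped, while mean Hpgds was not lower (3.66 FPKM in COM and 4.93 in COM+Met). The platelet sum of COM-1 to COM-3 lay inside the NC range and Ptgs1 in these samples was lower than in NC, and the part of platelets was not tested. In bulk RNA, fewer cells of a type and less RNA per cell cannot be told apart. The sum of 14 tubular epithelial markers was 10.4 to 18 in NC, nearly all of it Cdh1 (9.45 to 17.8), and at most 1.37 in COM and 0.332 in COM+Met. The sum of 7 dendritic cell markers was 2.73 to 28.2 in NC, 64.0 to 225 in COM and 38.8 to 76.4 in COM+Met, nearly all of it Ccr7 in COM (61.2 to 214), and 3 of the 7 had lower means in COM than in NC. The sum of 8 stromal markers was 14.7 to 61.0, 4.61 to 36.8 and 2.38 to 7.33 in NC, COM and COM+Met.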

How the data were processed

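RNA sequencing of BMDMs was analysed in 18 samples, 6 per group, with groups and replicate numbers taken from the sample titles. The authors deposited 1 table of FPKM values per gene and sample, with replicates kept apart. Libraries were made from total RNA with an Illumina TruSeq kit that does not mark strand. Bowtie 0.12.2 is listed in the submitters' processing notes, as are mm8 and mm9 with no role for either, and the quantifier is not given in the sources used here, nor is its annotation. All 18 columns were used and 0 were left out, and no 2 columns were identical. Depth is unknown, so no counting interval could be given. FPKM is a share of each sample's total, so a gene can fall because others rise.

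Values were set on the log2(FPKM + 1) scale, on which a fold change understates the change of low genes. Genes whose mean over the compared samples reached 1 FPKM were fitted in R 4.3.3 by limma 3.58.1, with lmFit and a trended eBayes step, each contrast in its own 12 samples, with Benjamini-Hochberg adjustment over all genes tested. The study's methods name Student's test and analysis of variance without a model for the sequencing data. Exact permutation tests were two-sided, on the mean log2 value. The labels' replicate numbers did not pair the samples (deviations of same-numbered samples correlated at -0.22 to 0.056, with 0 of 6 pairs over 0.1 in each contrast). On simulated data with 100 genes changed by 1.5 and 100 by 3 on the log2 scale, the fit for COM vs NC called 88 and 100 of them, with 3 false calls among 10564. The simulated samples were drawn independently of each other, without the sets seen in COM or the distance of NC-5 and NC-6. The false calls therefore say nothing of errors under that structure.

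All 10 genes are named. Of the wider lists, genes called in a contrast are named, up to 8 per contrast by size of difference, and the rest are counted. The members and lists were chosen with earlier results of these data known. Positions are from GENCODE M21 (GRCm38) by Ensembl identifier, and promoters from RefSeq (GRCm38.p6) by symbol. For Ptges and Tbxas1 the RefSeq start lies far inside the GENCODE span. Dpep2 has 2 entries, of which the one with the higher mean was used. Alternatives were pseudocounts of 0.1 and 5, filters of none and 5 FPKM, rescaling to a common total (TPM), size factors, quantile normalisation, a replicate block, a fit of all 18 samples, sample weights and left-out libraries. Python 3.11.15 with numpy 2.4.6 and pandas 2.3.3 made the tables, and matplotlib 3.10.9 the plots.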

Additional observations from a re-analysis of the deposited data

Results flagged for a closer look

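Each gene was screened in each group of 6 samples for a sample set far apart from the rest, where its gap to the nearest other sample takes up more of the group's whole range than Dixon's 95% critical value for 6 samples. Of 30 screened sets 6 held such a sample, and 3 of the 6 were in COM, all of them COM-6. Chance alone gives about 1 in 20 only for independent, normally distributed values. The sets share the same libraries, so no excess over chance can be read from the count. In COM-6, Ptges was at 39.7 FPKM against 72.2 to 80.9 in the other COM samples, with a gap of 0.787 of the range. Tbxas1 in COM-6 was at 14.9 FPKM against 25.0 to 29.1 (0.712), and Pla2g4a in COM-6 was at 23.6 FPKM against 12.4 to 16.0 (0.676). In COM+Met-1, Ltc4s was at 12 FPKM against 6.97 to 8.24 (0.748). In NC, Hpgds was at 17.8 FPKM in NC-4 against 12.5 to 14.2 (0.679), and Pla2g4a was at 15.6 FPKM in NC-2 against 11.7 to 13.1 (0.649).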

How the results depend on the processing

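The count of all genes called moved by over 1.5 times in these cases. For COM vs NC it was 1926, and 980 with a pseudocount of 5. For COM+Met vs NC it was 2078, and 1117 with a pseudocount of 5. For COM+Met vs COM it was 230, and 370 with a pseudocount of 0.1, 90 with a pseudocount of 5, 719 with sample weights and 771 without COM-4 to COM-6. The count among the 10 genes stayed within 4 to 7 in COM vs NC (5 as reported) and within 6 to 9 in COM+Met vs NC (9 as reported). In COM+Met vs COM it was 0, and 1 with quantile normalisation or with all 18 samples in the fit, 4 with sample weights and 4 without COM-4 to COM-6, and 0 to 1 when single samples were left out (1, Ptgs1, without COM-6). Signs turned for Ptgs2 in COM vs NC with sample weights (-0.033), for Ptgs2 (-0.12), Alox5 (0.14), Lta4h (0.38) and Ltc4s (0.98) in COM+Met vs COM without COM-1 to COM-3, and for Pla2g4a in COM+Met vs NC with size factors (0.22) and quantile normalisation (0.18). The cause was not tested. Over all alternatives, 237 of 250 single values in COM vs NC, 203 of 238 in COM+Met vs COM and 227 of 230 in COM+Met vs NC kept direction and side of the threshold. Alox5 and Hpgds could not be tested in COM+Met vs COM with the filter of 5 FPKM. With the replicate block, which pairs samples that share only a number, 1920, 202 and 2080 genes were called in COM vs NC, COM+Met vs COM and COM+Met vs NC, and 5, 0 and 9 of the 10. Under the block Ptges in COM+Met vs COM did not pass (adjusted p = 0.0782, limma), and no other of the 10 changed its call. No sample correlated best with its own number.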
